A study of Mus musculus with 6 samples.

Results

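Apol9a and Apol9b are a pair of near-identical mouse apolipoprotein L genes, and their RNA was measured in naïve CD4 T cells with and without the cap methyltransferase gene Rnmt. Apol9b RNA was 3.64-fold lower in Rnmt cKO cells, from 10.4 to 2.86 CPM on average (counts scaled with TMM factors to a common library size), and lay below the controls in 3 of 3 libraries, while Apol9a was scarcer and its lower mean, 1.57 against 3.04 CPM, was uneven between libraries. Of 66 tested interferon-induced genes 31 were higher and 3 lower, beside 8.0% higher and 6.84% lower over all tested genes. None of the 66 had a log2 fold change as low as that of Apol9b. With all 6 libraries none was as low as Apol9a either, though Ifit1bl2 was lower than Apol9a without control 3. Among control 1, control 2 and Rnmt cKO 3 alone Apol9a was at -0.15, and the 66 genes were not ranked there. Over all tested genes, 15 lay below Apol9b and 214 below Apol9a, so values this low were rare in the whole comparison. The 2 genes were found by symbol among the 46983 genes of the count tables, of which 12336 passed the filter on low counts and were tested. The pair was picked with the result of this comparison known, because Apol9b was among the largest falls in Rnmt cKO cells while interferon-induced genes were higher. The levels and fold changes of both genes are therefore given as a description, with no test.

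The study set 3 control libraries beside 3 Rnmt cKO (conditional knock-out) libraries to ask which RNAs of resting T cells depend on RNMT. Control mice were Rnmt fl/fl CD4cre - and Rnmt cKO mice Rnmt fl/fl CD4cre +, so both groups carried floxed Rnmt alleles on a C57B6/J background, and the Cre transgene and loss of Rnmt cannot be told apart. Cre was driven by Cd4 regulatory sequence and acts from the double positive stage of thymic development, so deletion begins before the T cells mature. All libraries came from males, whose ages the labels do not give, and the cells were sorted from lymph nodes as TCRb+, CD4+, CD62L+, CD44- and DAPI-.

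RNMT methylates the guanosine cap that mRNAs and other polymerase II products carry at their 5′ end, and the methylated cap protects mRNA and recruits cap-binding proteins for its processing and translation. Most apolipoprotein L proteins act inside cells, unlike the apolipoproteins that carry lipid in plasma, although the best known, human APOL1, circulates and lyses trypanosomes. Mouse Apol9a and Apol9b are known as interferon-induced genes and have been linked to restriction of virus replication. Type I interferon activates transcription factors, STAT2 and IRF9 among them, that act at the interferon-stimulated response element (ISRE) in promoters. Interferon-γ acts at a different element, the γ-activated sequence (GAS).

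Both genes lie on chromosome 15 (mm10) in the Apol cluster. Apol9a (ENSMUSG00000057346) spans 77403789 to 77411135 on the minus strand and Apol9b (ENSMUSG00000068246) spans 77729039 to 77736382 on the plus strand, so that their 5′ ends face each other across 317.903 kb. Each has 1628 annotated exon bases in GENCODE vM21 and a coding sequence of 930 bases, or 310 codons. The sequence upstream of the start, from RefSeq on GRCm38.p6, is shown because it is the same in both genes and holds ISRE letters. It is chr15:77411124-77411303 on the minus strand for Apol9a and chr15:77728871-77729050 on the plus strand for Apol9b, printed 5′ to 3′ in the direction of transcription, with bases that match the ISRE core in capitals.
Apol9a and Apol9b: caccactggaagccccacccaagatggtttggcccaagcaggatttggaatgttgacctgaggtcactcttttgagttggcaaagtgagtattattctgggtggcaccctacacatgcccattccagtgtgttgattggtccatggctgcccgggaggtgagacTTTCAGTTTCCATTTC

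These 180 bases were identical, and so were all 278 bases over which the 300-base RefSeq windows of both genes overlap. The letters GAAANNGAAA, searched on both strands as the ISRE core, matched at a pair of overlapping positions on the opposite strand. Relative to the first listed RefSeq start, the matches lay at -37 to -28 and -31 to -22 in Apol9b, and at -59 to -50 and -53 to -44 in Apol9a. GENCODE places the 5′ end of both genes further upstream, within this match. Such a match was present in 3.99% of 27025 genes with a promoter window, in 3.86% of the 8648 tested genes with one, and in 31 (66%) of the 47 tested interferon-induced genes with one. The GAS core TTCNNNGAA was matched in neither gene, and in 9.55%, 8.31% and 25.5% of the same sets. A match is a description of letters and not a bound site, and no match says only that these letters are not in these windows.

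The study separates transcripts by their first nucleotide. The first base at the 4 annotated RefSeq starts of the pair was A or T in Apol9a and G in both starts of Apol9b, and none was C. Only the second start of Apol9a was followed by a run rich in pyrimidines, which made up 4 of its first 5 bases. The starts used in these cells were not measured here, and the bases at the GENCODE 5′ ends were not examined.

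The transcripts are nearly as alike as the promoters, which limits how well reads can be assigned to either gene. Over the longest coding transcripts, of 1530 and 1529 bases, the pair was 98.5% identical, with 23 substitutions and no gap, and 14 of these lay in the coding sequence. The 60 coding bases with the most differences, coding bases 494 to 553 in the last coding exon, are shown because fragments from this stretch can be assigned to 1 gene. They lie at chr15:77404613-77404672 on the minus strand and chr15:77735499-77735558 on the plus strand, with the 6 differing bases in capitals.
Apol9a: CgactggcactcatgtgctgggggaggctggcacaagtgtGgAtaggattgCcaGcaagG
Apol9b: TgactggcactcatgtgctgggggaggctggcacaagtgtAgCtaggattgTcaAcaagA

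Elsewhere the sequence runs without a difference for up to 446 coding bases. Of all 75-base windows along the transcripts, 52.1% occurred in 1 gene of the pair only and 47.9% in both, while none was shared with a transcript of any other gene. Both genes were thus alike in the share of sequence that can give uniquely mapped reads, and only uniquely mapped reads were counted. Reads were sequenced as pairs, so a read in an identical stretch can still be placed by its mate, and of 200-base windows 81.4% occurred in 1 gene only. Lengths of the sequenced fragments are not given in the sources used here. The share of mapped reads that mapped to several places was 17.5%, 13.4% and 11.8% in controls 1, 2 and 3 against 8.30%, 8.27% and 13.9% in Rnmt cKO 1, 2 and 3, and its part in the counts of the pair was not tested.

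The libraries held 8873413 to 11277764 sense counts, and no 2 replicates of a group were within counting noise of each other, since each pair differed by 3.64 to 22.9 chi-square units per degree of freedom. The study describes the libraries of each group as from as many mice, although the labels name no mouse for a library. Of the 12336 tested genes, 987 (8.0%) were higher and 844 (6.84%) lower in Rnmt cKO cells by edgeR's exact test at an adjusted p under 0.05, and 1939 and 535 when scaled by library size alone, which shifted the median over all genes from 0.01 to 0.13 on the log2 scale. The targeted gene, Rnmt, stood at 51.4, 58.6 and 57.8 CPM in controls against 41.9, 37.4 and 26.6 CPM in Rnmt cKO cells, a log2 fold change of -0.68 with an SE of 0.20 (edgeR exact test, adjusted p = 0.00035). Counts were taken over the whole gene while the floxed part is exon 3, so the remaining reads do not measure intact transcript. The share of uniquely mapped reads in no gene was 36.1%, 39.7% and 31.8% in control 1, control 2 and Rnmt cKO 3, and 46.1% to 47.9% in the other 3 libraries. All 15 T cell markers passed the filter, with summed levels of 7168 to 7731 CPM in controls against 7473 to 8549 CPM in Rnmt cKO cells.

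Apol9b was lower in each Rnmt cKO library than in each control. It held 90, 103 and 95 counts in controls 1, 2 and 3 against 31, 25 and 36 counts in Rnmt cKO 1, 2 and 3. On the CPM scale this was 10.6, 10.3 and 10.5 in controls against 3.27, 2.11 and 3.22 in Rnmt cKO cells. The controls were close together, the Rnmt cKO libraries lay far below them, and Rnmt cKO 2 was the lowest. Mean levels were 10.4 ± 0.154 CPM (SD, n = 3) in controls against 2.86 ± 0.659 CPM (SD, n = 3) in Rnmt cKO cells, a 72.5% lower mean and a log2 fold change of -1.82 with an SE of 0.19. Only 15 of the 12336 tested genes had a lower log2 fold change, and Apol9b stood 5th from the bottom among 9701 genes with a mean of at least 5 CPM. Its level was between the 32.0 and 32.4 percentiles of tested genes in controls and between the 9.53 and 17.2 percentiles in Rnmt cKO cells.

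Apol9a was the less abundant copy and varied more. Controls 1, 2 and 3 held 24, 28 and 32 counts, or 2.82, 2.79 and 3.53 CPM. Rnmt cKO libraries 1, 2 and 3 held 13, 10 and 28 counts, or 1.37, 0.842 and 2.5 CPM. Rnmt cKO 3 came close to the controls while the other 2 Rnmt cKO libraries lay well below them, so that the groups were separated by a narrow gap. Exact Poisson 95% intervals, which cover counting error only, ran from 18.6 to 40.5 counts in Rnmt cKO 3 and from 15.4 to 35.7 counts in control 1, and overlap. Mean levels were 3.04 ± 0.419 CPM (SD, n = 3) and 1.57 ± 0.849 CPM (SD, n = 3), with a log2 fold change of -0.97 and an SE of 0.41. Without Rnmt cKO 2 the log2 fold change was -0.65. Groups were separated downwards in 14.9% of all tested genes and upwards in 16.6%, and nothing is read from the separation of this pair, which was chosen on the contrast.

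**Figure D1:**
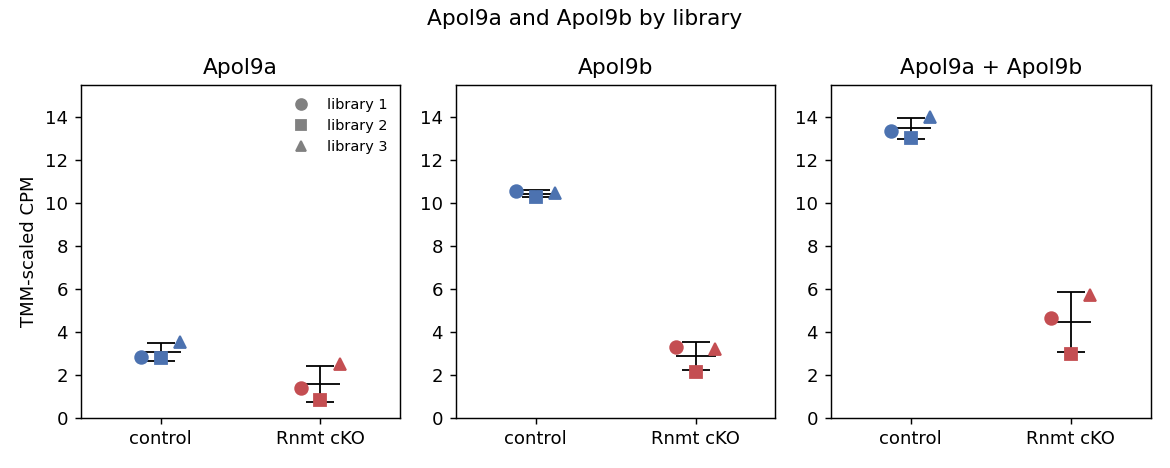
TMM-scaled CPM of Apol9a, Apol9b and their sum in 3 control (blue) and 3 Rnmt cKO (red) libraries. Marker shapes give the library number within each group, and bars show the mean and SD. Apol9b controls sit between 10.3 and 10.6 CPM and Rnmt cKO libraries between 2.11 and 3.27 CPM, while Apol9a of Rnmt cKO 3 (2.5 CPM) lies just under the lowest control (2.79 CPM).

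Since assignment within the pair rests on few bases, the sum of both genes was also taken. The pair held 114, 131 and 127 counts in controls against 44, 35 and 64 counts in Rnmt cKO libraries. Summed levels were 13.5 ± 0.483 CPM (SD, n = 3) and 4.44 ± 1.40 CPM (SD, n = 3), with a log2 fold change of -1.61 and an SE of 0.27. Per kilobase of exon, mean levels of Apol9b were 6.41 CPM in controls against 1.76 CPM in Rnmt cKO cells, and those of Apol9a were 1.87 and 0.966 CPM. By these means Apol9b was the more abundant copy in both groups. The gap was narrower in Rnmt cKO cells, but Apol9b was chosen for its fall, so nothing is read from this.

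Apol9a made up 21.1%, 21.4% and 25.2% of the counts of the pair in controls 1, 2 and 3 against 29.5%, 28.6% and 43.8% in Rnmt cKO 1, 2 and 3. Every Rnmt cKO share was above every control share, with means of 22.5 ± 2.31% (SD, n = 3) and 34.0 ± 8.50% (SD, n = 3). Wilson 95% intervals, which cover counting error only, overlap for control 3 (18.5% to 33.4%) and Rnmt cKO 2 (16.3% to 45.1%). Those of Rnmt cKO 1 and 2 overlap the interval of every control. That of Rnmt cKO 3 (32.3% to 55.9%) overlaps control 3 but lies above control 1 (14.6% to 29.4%) and control 2 (15.2% to 29.2%). A shift in the composition of the pair between the groups was not tested. Between the copies, log2 CPM over the 6 libraries had a Pearson r of 0.852, and deviations from the group means had an r of 0.782. These points share libraries and depth, and r is a description.

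The libraries that differ in their share of reads in no gene gave unlike values for Apol9a. Among the 3 libraries under 40%, 2 controls and Rnmt cKO 3, the log2 fold change was -0.15 for Apol9a and -1.63 for Apol9b. Among the 3 libraries over 40%, control 3 and the other 2 Rnmt cKO libraries, it was -1.54 for Apol9a and -1.92 for Apol9b. This split was made after the data were seen, each set has 1 library in an arm, and the pair was chosen on the same contrast, so these values are a description and nothing is read from their direction.

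Interferon-induced genes other than the pair were mostly higher or not past the threshold in Rnmt cKO cells. Of 69 listed antiviral effectors, sensors and GTPases, 66 were tested, of which 31 were higher, 3 were lower and 32 were not past the threshold (edgeR exact test, adjusted p under 0.05), beside 8.0% higher and 6.84% lower over all tested genes. The median log2 fold change was 0.36, against 0.01 over all tested genes, and values ran from -0.69 to 1.61. Of the 66, 14 were below 0 and 0 reached the value of Apol9a or of Apol9b. Over all 12336 tested genes, 15 lay below Apol9b and 214 below Apol9a, so values this low were rare among all genes. Without control 3, Ifit1bl2 (-0.99) lay below Apol9a (-0.87), and 0 of the 66 lay below Apol9b (-1.82). That interferon genes rose was part of the reason for choosing the pair, so the list is not independent evidence of its direction. The number higher was 17 without Rnmt cKO 1, 19 without control 3 and 20 without control 2.

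Among antiviral effectors, 21 of 37 tested genes rose and 1 fell, beside 8.0% higher and 6.84% lower over all tested genes. Their median was 0.52 on the log2 scale, and the number that rose was 12 without Rnmt cKO 1 and 13 without control 3. Isg15, a ubiquitin-like protein that is conjugated to other proteins, stood at 7.39, 6.18 and 5.29 CPM in controls against 22.3, 10.9 and 20.04 CPM in Rnmt cKO cells, a log2 fold change of 1.42 (SE 0.34, edgeR exact test, adjusted p = 1.8e-06). Ifi44 had the highest value in the list, a log2 fold change of 1.61 (SE 0.61, edgeR exact test, adjusted p = 0.00434), and its call was lost without Rnmt cKO 1 (adjusted p = 0.0569) and without control 2 (adjusted p = 0.0621). Ifit3b belongs to the IFIT family, which binds foreign RNA at its 5′ end, and had a log2 fold change of 1.38 (SE 0.46, edgeR exact test, adjusted p = 0.000411). Ifit1 was also higher, at 0.80 (SE 0.30, edgeR exact test, adjusted p = 0.00103), and so was Ifit3, at 1.04 (SE 0.51, edgeR exact test, adjusted p = 0.0132), though its groups overlapped. The call of Ifit3 was lost in the quasi-likelihood test (adjusted p = 0.0607), in DESeq2 (adjusted p = 0.209) and without control 2, control 3 or Rnmt cKO 1 (adjusted p = 0.0893 to 0.154). Ifit2 was at -0.10 (edgeR exact test, adjusted p = 0.583), and at 0.02 when scaled by library size alone. The 2 lowest values of the list were those of Ifit1bl1 and Ifit1bl2. Ifit1bl1 fell, with a log2 fold change of -0.44 (SE 0.21, edgeR exact test, adjusted p = 0.0335), a call lost in edgeR's quasi-likelihood test (adjusted p = 0.0782) and without control 1 (adjusted p = 0.274), control 3 (adjusted p = 0.068) or Rnmt cKO 2 (adjusted p = 0.205). That call was also lost in the exact test when scaled by library size alone (adjusted p = 0.104) and without a filter on low counts (adjusted p = 0.0524). Ifit1bl2 was at -0.69 (SE 0.40) and did not pass the threshold (edgeR exact test, adjusted p = 0.149), but passed it without Rnmt cKO 3 (adjusted p = 0.0082) and without control 3 (adjusted p = 0.0257). The IFIT genes are paralogs, and how much sequence they share was not measured.

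Among RNA and DNA sensors, 5 of 13 tested genes rose and 1 fell, beside 8.0% higher and 6.84% lower over all tested genes. The median of the 13 was 0.24 on the log2 scale. The number that rose was 2 without Rnmt cKO 1 and 3 without control 2 or control 3. The highest were Dhx58 (LGP2) at 0.79 and Ifih1 (MDA5) at 0.48, both receptors for double-stranded RNA, and Zbp1, a sensor of Z-form nucleic acid, at 0.59. Their adjusted p-values in the edgeR exact test were 0.00379, 0.00192 and 8e-05, and the call of Dhx58 was lost without Rnmt cKO 1 (adjusted p = 0.06) and without control 3 (adjusted p = 0.0567). Ifi208, of the interferon-inducible PYHIN family, fell from 179 ± 2.14 CPM (SD, n = 3) to 144 ± 4.03 CPM (SD, n = 3), a log2 fold change of -0.31 (edgeR exact test, adjusted p = 0.00396), although the call was lost when scaled by library size alone (adjusted p = 0.153) and without Rnmt cKO 2 (adjusted p = 0.0622). Aim2, a sensor of cytosolic DNA, was at -0.33 (SE 0.19, edgeR exact test, adjusted p = 0.217).

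Interferon-induced GTPases act on the vacuoles of intracellular pathogens. Of the 16, all tested, 5 rose and 1 fell, beside 8.0% higher and 6.84% lower over all tested genes. The median of the 16 was 0.16 on the log2 scale. The number that rose was 3 on leaving out any 1 library other than control 1 or Rnmt cKO 3, and the 1 that fell lost its call on leaving out any 1 other than Rnmt cKO 3. Iigp1 was at 0.84 (SE 0.20, edgeR exact test, adjusted p = 2.4e-06), Igtp at 0.50 (SE 0.09, adjusted p = 2.6e-05) and Gbp3 at 0.47 (SE 0.08, adjusted p = 0.00314, and 0.0613 without Rnmt cKO 2). Gbp7 was the 1 that fell, with a log2 fold change of -0.25 (edgeR exact test, adjusted p = 0.0392), and it lost the call in 11 of 14 alternatives. Irgm2 was at -0.24 (adjusted p = 0.193).

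**Figure D2:**
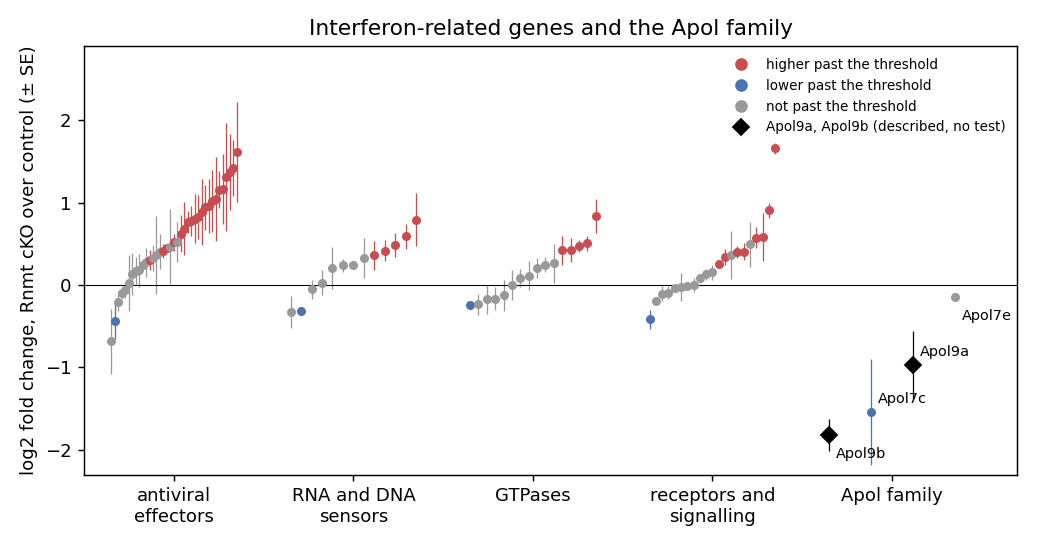
Log2 fold change (Rnmt cKO over control) with its SE for the tested genes of 4 interferon-related lists and of the Apol family, ordered within each list. Red and blue points passed the threshold as higher or lower, grey points did not, and black diamonds mark Apol9a (-0.97) and Apol9b (-1.82). With all 6 libraries both lie below every tested interferon-induced gene, while without control 3 Ifit1bl2 (-0.99) lay below Apol9a (-0.87). Of all 12336 tested genes, 15 lay below Apol9b and 214 below Apol9a.

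Genes of the interferon receptors and their signalling were given as a separate list, of which 21 of 22 were tested, 8 rose and 1 fell, beside 8.0% higher and 6.84% lower over all tested genes, and the median log2 fold change was 0.15. The number that rose was 5 without control 2, control 3 or Rnmt cKO 1, and the 1 that fell lost its call on leaving out any 1 library other than control 3 or Rnmt cKO 3. Stat2 and Irf9, whose products act at the ISRE, were higher, with log2 fold changes of 0.40 and 0.58 and adjusted p-values of 0.00346 and 1.7e-05 in edgeR's exact test. The call of Stat2 was lost without Rnmt cKO 1 (adjusted p = 0.0588) and in the quasi-likelihood test with the replicate number as a block (adjusted p = 0.0577). The interferon regulatory factors Irf1 and Irf7 were at 0.25 and 0.58 (adjusted p = 0.0446 and 0.0309), and Irf1 lost its call in 11 of 14 alternatives, while Irf7 lost it in the quasi-likelihood test (adjusted p = 0.0816) and without Rnmt cKO 1 (adjusted p = 0.232), control 2 (adjusted p = 0.192) or control 3 (adjusted p = 0.229). Jak2, the kinase bound to the interferon-γ receptor among others, was at 0.40 (adjusted p = 0.000824).

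The largest difference in this list was in the feedback inhibitors of JAK-STAT signalling. Socs3 stood at 164, 163 and 150.02 CPM in controls against 469, 499.8 and 536 CPM in Rnmt cKO cells, a log2 fold change of 1.66 (SE 0.07, edgeR exact test, adjusted p = 7e-56). Socs1 rose from 22.9 ± 0.211 CPM (SD, n = 3) to 43.2 ± 4.44 CPM (SD, n = 3), a log2 fold change of 0.90 (edgeR exact test, adjusted p = 1.2e-11). Il10rb, a receptor chain shared by interleukin-10 and interferon-λ, fell with a log2 fold change of -0.41 (edgeR exact test, adjusted p = 0.0217), a call that was lost in 8 of 14 alternatives.

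Library by library, the interferon-induced genes and the pair ordered the samples alike only in part. The median difference of the 66 interferon-induced genes from their control means, in log2 CPM, was 0.19, -0.04 and -0.15 in controls 1, 2 and 3 against 0.52, 0.29 and 0.34 in Rnmt cKO 1, 2 and 3. Among controls the interferon-induced genes were thus highest in control 1 and lowest in control 3. Apol9b was at 0.02, -0.02 and 0.01 by the same measure, also highest in control 1 but lowest in control 2. Rnmt cKO 1 had the highest interferon-induced genes, with Apol9b at -1.62 and Apol9a at -1.04. In Rnmt cKO 3 Apol9b was at -1.64 and Apol9a at -0.25, the highest Apol9a of that group. Apol9b thus ordered the Rnmt cKO libraries as the interferon-induced genes did, by a small margin between 1 and 3, and Apol9a did not. Rnmt cKO 2 had the lowest of the Rnmt cKO group for all 3 measures, with Apol9b at -2.21 and Apol9a at -1.63.

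**Figure D3:**
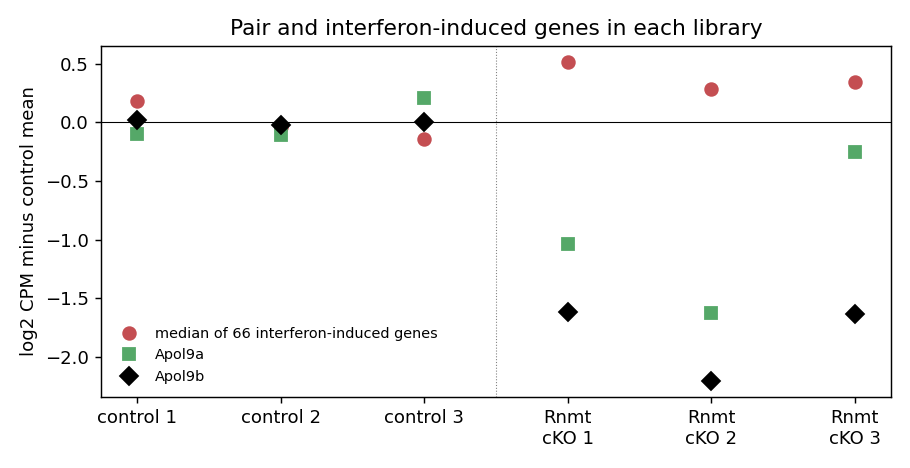
Log2 CPM minus the control mean in each library for Apol9a, Apol9b and the median of 66 interferon-induced genes. In each Rnmt cKO library the interferon median lies above 0 (0.29 to 0.52) and both genes of the pair lie below it.

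Markers of other cells also moved between the groups. Of 16 myeloid and dendritic cell markers 6 were tested, of which 4 rose (Lyz2, Mpeg1 and the neutrophil and monocyte genes S100a8 and S100a9), and the summed level of the list was 8.07 to 10.6 CPM in controls against 19.6 to 45.3 CPM in Rnmt cKO cells. Of 12 B cell markers, all tested, 6 rose and Ighm fell, and their sum, mostly Ighm, was 348 to 414 CPM in controls against 264 to 332 CPM in Rnmt cKO cells. NK cell markers had 2 of 7 tested, with Eomes higher and Prf1 lower, at sums of 35.3 to 43.3 and 22.1 to 29.98 CPM. Prf1 held most of these sums, with means of 33.0 and 14.2 CPM. Stromal and endothelial markers had 2 of 8 tested and neither called, at sums of 285 to 321 and 309 to 332 CPM. Nearly all of these sums was Pecam1, with means of 299.8 and 318.9 CPM, so they do not measure the other markers of the list. Over all tested genes 8.0% were higher and 6.84% lower. No marker of these 4 lists was at 0 in all 6 libraries. The part of other cells in the levels of the pair or of the interferon-induced genes was not tested, and in bulk RNA fewer cells with a transcript and less of it per cell cannot be told apart.

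The rest of the Apol family was mostly silent in these cells. Of 14 family genes in the tables, 4 were tested, Apol10a had no count in any library, and the other 9 had at most 14 counts in any library. Apol10b held 27 counts in all over the controls and 23 over the Rnmt cKO libraries, and Apold1 6 and 14. Apol6, Apol7a, Apol7b, Apol7d, Apol8, Apol11a and Apol11b held at most 5 counts in all in either group.

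Apol7e was the most abundant family member by far and did not pass the threshold, with 69.3, 67.1 and 73.5 CPM in controls against 65.3, 62.8 and 62.3 CPM in Rnmt cKO cells, a log2 fold change of -0.14 (SE 0.04, edgeR exact test, adjusted p = 0.37). Apol7c was near the detection limit, with 1.53, 1.10 and 2.43 CPM in controls against 0.105, 1.01 and 0.447 CPM in Rnmt cKO cells. It was lower in the exact test, with a log2 fold change of -1.54 (SE 0.65, adjusted p = 0.0158), but not in edgeR's quasi-likelihood test (adjusted p = 0.0985) or in DESeq2 (adjusted p = 0.108). The call was also lost without control 3 (adjusted p = 0.19) and without Rnmt cKO 1 (adjusted p = 0.155), where the log2 fold change was -1.03. Without a filter on low counts the exact test lost it as well (adjusted p = 0.0574). Apol7c and Apol7e were the only family genes tested beside the pair, and over all tested genes 6.84% were lower.

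Apolipoprotein genes outside the family were little expressed. Of 14 listed, 4 were tested, 0 were higher and 1 was lower, beside 8.0% higher and 6.84% lower over all tested genes. Apobr, the receptor for apolipoprotein B, fell from 8.13 ± 0.512 CPM (SD, n = 3) to 4.32 ± 0.452 CPM (SD, n = 3), with a log2 fold change of -0.88 (edgeR exact test, adjusted p = 0.000327). Apoe, the lipid carrier made by macrophages and other cells, was at 0.18 (adjusted p = 0.664), and Apoo and Apool, which encode mitochondrial inner membrane proteins, were at -0.14 (adjusted p = 0.829) and -0.06 (adjusted p = 0.888).

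Genes around the pair on chromosome 15 did not share the low values of Apol9b as a block. Within 500 kb of the 332.594 kb that the pair spans there were 33 other genes, of which 11 were tested, 0 were higher and 3 were lower, beside 8.0% higher and 6.84% lower over all tested genes. The median log2 fold change was -0.14, which is also the value of Apol7e. The nearest tested gene outside the span was Myh9, the heavy chain of non-muscle myosin, 24205 bases beyond Apol9b, at -0.01 (SE 0.09, edgeR exact test, adjusted p = 0.997) and 2926 ± 5.25 CPM (SD, n = 3) in controls, though at 0.11 when scaled by library size alone. On the other side it was 1110038F14Rik, 452810 bases beyond Apol9a, at 0.12 (SE 0.16, adjusted p = 0.768).

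The number of lower neighbours was 1 on leaving out any 1 library other than control 2 or Rnmt cKO 3. The 3 lower neighbours were Apol7c, which lies between the 2 genes, and Rpl8 and Zfp647, which lie at the far edge of the window beyond Apol9a. Rpl8 encodes a protein of the large ribosomal subunit and fell from 1629 ± 209 CPM (SD, n = 3) to 1057 ± 279 CPM (SD, n = 3), a log2 fold change of -0.65 (edgeR exact test, adjusted p = 0.00446) that lost its call without control 1, Rnmt cKO 1 or Rnmt cKO 2 (adjusted p = 0.0516 to 0.061). Zfp647, a zinc finger gene at 1.79 and 0.623 CPM, was at -1.36 (SE 0.45, adjusted p = 0.00932) and lost its call in the quasi-likelihood test (adjusted p = 0.0597), in DESeq2 (adjusted p = 0.0936) and without Rnmt cKO 2 (adjusted p = 0.137).

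**Figure D4:**
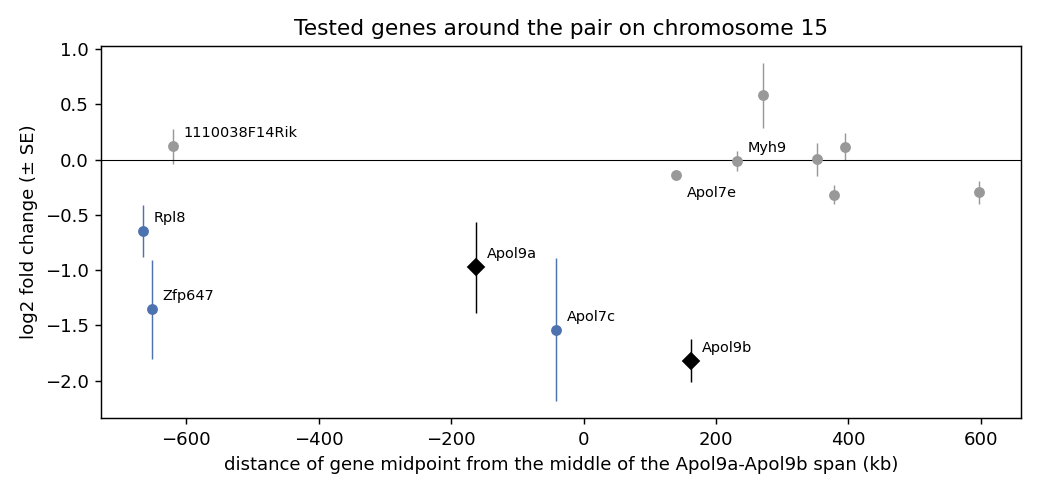
Log2 fold change with its SE for tested genes within 500 kb of the pair, by the distance in kb of the gene midpoint from the middle of the span. Blue points passed the threshold as lower, grey points did not pass it, and black diamonds are Apol9a and Apol9b. Apol7e and Myh9, on either side of Apol9b (-1.82), lie at -0.14 and -0.01.

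Among 9700 tested genes with a mean of at least 5 CPM, those whose log2 CPM over the 6 libraries was most like Apol9b were Crim1 (Pearson r = 0.998), Tbc1d16 (0.998), Fasl (0.998), Foxk2 (0.996) and Grap2 (0.996). The points share libraries and the difference between groups, so r is a description. Likeness in pattern did not mean likeness in size. Tbc1d16, of a family of proteins that switch off Rab GTPases, had 39.1 CPM in controls against 17.1 CPM in Rnmt cKO cells, a log2 fold change of -1.20. Fasl, the death ligand of the TNF family, had 11.4 and 5.37 CPM and a log2 fold change of -1.06. Crim1, Foxk2 and Grap2, an adaptor protein in T cell receptor signalling, were at -0.60, -0.41 and -0.17. For Apol9a the most alike were Abhd5 (r = 0.999), Grap (0.993) and Vipr1 (0.989), at -0.57, -0.17 and -0.19. In each of these 3 Rnmt cKO 3 was the highest and Rnmt cKO 2 the lowest library of the Rnmt cKO group, as in Apol9a. They were picked for a high r with Apol9a over these same libraries, so nothing is read from the shared order. Ifi208, the interferon-inducible gene described above, came next for Apol9b (r = 0.996).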

How the data were processed

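RNA was rRNA-depleted with Ribo-Zero Gold and made into TruSeq libraries. Per the labels, the authors aligned reads to mm10 with STAR 2.5.2b and used edgeR. They deposited 1 table per library of unnormalised counts of uniquely mapped reads in each gene, for either strand and for each strand. Sense counts were used. The deposited comparison table also holds a normalised signal per sample, which the authors made by scaling counts and which served only to check the strand (within 0.1% for all of 11221 genes), and fold changes and p-values, which were not used. All per-sample columns could be matched to a sample. Lines without a gene stayed out of library sizes. Reads in no gene were 31.8% to 47.9% of uniquely mapped reads. The precision of each value is limited by its count. Counts are given for the pair and, as totals or upper limits, for Apol genes that were not tested. Other genes are given in CPM or as log2 fold changes only.

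The filter kept genes above 1 CPM in 3 or more libraries, which were scaled with TMM factors and tested with the exact test of edgeR 4.0.16 (R 4.3.3) on tagwise dispersions, with Benjamini-Hochberg adjustment over 12336 genes. Log2 fold changes are differences of mean log2 CPM (prior count 2), Rnmt cKO minus control, with SE from the per-sample values. Alternatives used edgeR's quasi-likelihood test, DESeq2 1.42.0 and other scalings, filters and samples. Coordinates and lengths are from GENCODE vM21, which held 46488 of the 46983 gene identifiers. Promoters are from RefSeq and transcript windows were compared among GENCODE transcripts, in place of a genome, which was not used here. Both members matched RefSeq. Code was tested on simulated data.

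Members and gene lists were chosen with earlier results of these data known. The named genes are the pair, the family, the 3 highest and 2 lowest of each interferon-induced list, genes past the threshold among receptors and signalling, other apolipoproteins and neighbours, the nearest tested neighbour on each side, the 5 and 3 genes most like Apol9b and Apol9a, and Rnmt. Of the genes that meet this rule, 1 is not reported here. Others, such as Apoe, Apoo, Apool, Ifit1, Ifit2, Ifit3 and cell type markers, were named after their values were seen.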

Additional observations from a re-analysis of the deposited data

How the results depend on the processing

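The log2 fold change of Apol9b moved by less than the pooled SD between replicates in all 18 alternatives, from -1.63 to -1.93. Those of Apol9a (15 of 16 alternatives) and of the sum (17 of 18) did so too, except among the 3 libraries with under 40% of reads in no gene, a split chosen after seeing the data, where they were -0.15 and -1.18. Leaving out any 1 library gave -1.35 to -0.65 for Apol9a and -1.82 to -1.36 for the sum. Apol9a has no value where more than 1 CPM was required in each of the 6 samples, or in the filtered fit of the other 3 libraries, since Rnmt cKO 2 was under 1 CPM. The -1.54 given above for Apol9a in those libraries came from outside that fit and is not among the 16. It also lies further from the main value than the pooled SD. Windows of 50, 100 and, chosen later, 200 bases were unique for 42.54%, 58.91% and 81.44% in Apol9a and 42.50%, 58.88% and 81.43% in Apol9b, where 75 bases gave 52.1%, by construction.

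Scaling by library size alone gave 1939 genes higher and 535 lower in the whole comparison, with 78.4% of calls higher in place of 53.9%. It also gave 8 sensors higher, 1 neighbour higher, and 0 antiviral effectors, sensors, GTPases or signalling genes lower, and Myh9 turned to 0.11. With all libraries 2 family genes were counted as lower, Apol9b, which was chosen on this contrast, and Apol7c. Without a filter, 1 Apol family gene, 0 antiviral effectors, 0 GTPases and 0 signalling genes were lower, and with more than 1 CPM in all 6 samples 1 family gene and 1 neighbour. In edgeR's quasi-likelihood test 1 family gene, 0 effectors, 0 GTPases and 1 neighbour were lower, and in DESeq2 1 family gene, 0 GTPases, 0 signalling genes and 1 neighbour. Counts of either strand left 0 GTPases lower. For these and the counts below, the cause of the difference was not tested.

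Equal replicate numbers did not pair the libraries, with correlations of deviations of -0.21, -0.02 and -0.35 for numbers 1, 2 and 3. With the replicate number as a block in the quasi-likelihood test, 431 genes were higher and 276 lower, with 3 sensors, 3 GTPases and 5 signalling genes higher, 1 family gene lower, and 0 sensors, GTPases, signalling genes, other apolipoprotein genes or neighbours lower. Apol9b was at -1.88, Apol9a at -1.02 and their sum at -1.64 under the block. Calls lost in this blocked quasi-likelihood test included those of Stat2, Dhx58, Gbp3, Ifi208, Rpl8, Zfp647, Apobr and Apol7c (adjusted p = 0.056 to 0.188).

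Leaving out 1 library at a time, 643 to 1221 genes were higher and 547 to 1285 lower, the extremes without Rnmt cKO 2 and Rnmt cKO 3. Genes higher ranged from 12 to 24 among effectors, 2 to 7 among sensors, 3 to 6 among GTPases, 5 to 8 in signalling and 0 to 1 among neighbours. Genes lower ranged from 1 to 3 in the family and among neighbours, from 0 to 2 among effectors, and from 0 to 1 among sensors, GTPases and signalling genes. Myh9 ran from -0.119 to 0.0407, above 0 in the fits that left out Rnmt cKO 1 or Rnmt cKO 2, and 1110038F14Rik from -0.0296, the value without control 3, to 0.225. Of 554 values of the 40 other genes that meet the naming rule, 471 kept direction and side of the threshold, 74 lost the call, 5 gained one and 4 turned. Counts of 10 to 36 behind single values limit the pair in Rnmt cKO cells.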
